A study of Rattus norvegicus with 40 samples.

Results

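Expression of 9 genes that act in plasminogen activation, its inhibition and haemostasis at the vessel wall was followed in rat cerebral cortex after hypoxic preconditioning. The genes were Plat, Plau, Plaur, Serpine2, Serpini1, Vwf, F3, Thbd and Procr. They were taken as every probe set that the platform annotation gives to 1 of these genes alone, which gave 14 of the 31042 probe sets. Of these, 8 probe sets covering 7 genes passed a filter on low intensity, out of 18625 that passed in all. Plau and Plaur had no probe set above the filter and are described by their values near the floor of the measurement.

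Total RNA of the cortex was measured on 40 Affymetrix arrays of 1 colour, 20 from the group labelled hypoxic preconditioning and 20 from the sham group, which was kept in normal oxygen. Samples of each group are numbered 1 to 20, and the numbers fall into 4 runs of 5 preconditioned and 5 sham arrays (1 to 5, 6 to 10, 11 to 15 and 16 to 20). The labels give no meaning for the runs, and no oxygen level, length of exposure, strain or age. They do not state that samples came from different animals, so every p-value here reflects the spread among these samples alone, some of which may be technical.

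Plasminogen activators cut plasminogen into plasmin, the protease that dissolves fibrin and also cuts matrix proteins. In brain, tissue plasminogen activator is made by neurons, glia and endothelium, and serpins such as neuroserpin and protease nexin-1 trap activators or thrombin in a covalent complex. On the vessel wall, von Willebrand factor binds platelets, tissue factor starts clotting, and thrombomodulin and the endothelial protein C receptor turn thrombin towards activation of protein C, an anticoagulant.

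All 40 arrays had been scaled to a common mean intensity before deposition, and their medians on the log2 scale lay within 0.29 of each other. Preconditioned arrays 5 and 6 stood apart, with medians of 5.59 and 5.53, and results that change without them are given both ways. RNA integrity, read as the 3' over 5' signal of control transcripts, lay between 0.892 and 1.06 for GAPDH and between 1.38 and 1.90 for actin. Neuron markers, a check of the tissue, were above the filter in 10 of 10 genes, astrocyte markers in 9 of 9 and endothelial markers in 12 of 15, of which 13 had a probe set of their own. In tissue RNA of this kind, fewer cells of a type and less RNA per cell cannot be told apart.

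Promoter sequences of 5 of the 9 genes (Plau, Plaur, Serpine2, Serpini1 and Procr) were matched in RefSeq's table for the rat build GRCr8. Those of Procr and Plau are shown because a preconditioning difference passed the test for these genes in at least 1 setting and because both hold a core of the hypoxia response element, the site bound by the oxygen-regulated factor HIF. Each covers the 250 bases before the start, 5' to 3' on the strand of the gene. Capitals mark the hypoxia response element core (ACGTG or GCGTG, searched on both strands) and the AP-1 site TGACTCA (likewise on both strands), which do not overlap in these windows.
Procr, chr3:164714477-164714726, plus strand: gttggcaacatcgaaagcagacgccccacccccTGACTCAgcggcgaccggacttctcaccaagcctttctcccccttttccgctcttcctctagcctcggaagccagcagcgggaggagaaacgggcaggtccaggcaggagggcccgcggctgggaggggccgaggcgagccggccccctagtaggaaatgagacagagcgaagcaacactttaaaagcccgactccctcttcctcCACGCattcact
Plau, chr15:3511988-3512237, minus strand: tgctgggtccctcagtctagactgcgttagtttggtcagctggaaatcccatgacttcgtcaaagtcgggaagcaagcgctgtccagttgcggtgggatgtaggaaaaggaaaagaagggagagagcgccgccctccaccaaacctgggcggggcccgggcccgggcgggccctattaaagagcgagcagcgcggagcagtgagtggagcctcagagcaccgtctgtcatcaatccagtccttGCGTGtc
In Procr the core lies on the opposite strand, reads CACGC in this direction and begins 12 bases before the start, and the AP-1 site begins 217 bases before it. In Plau the core begins 7 bases before the start. Plaur has an AP-1 site 83 bases before its start and no core, and Serpine2 and Serpini1 have neither. Of 33469 rat promoter windows of the same length, 36.7% hold the core and 4.05% the AP-1 site, so the core is common. The core was a reason for showing Procr and Plau, so its presence in both is not a result. Plat, Vwf, F3 and Thbd had no matched promoter. A match describes letters in the window and says nothing of binding.

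Among the activators, Plat, which encodes tissue plasminogen activator, was higher in preconditioned cortex in the first 2 runs and not detectably different in the last 2. In numbers 1 to 5, the Plat probe set (1367800_at) had intensities of 547, 549, 609, 576 and 508 in preconditioned arrays, against 240.0, 227, 253, 279 and 272 in sham arrays. From numbers 6 to 10, it had 443, 485, 426, 477 and 589 in preconditioned arrays, against 334, 298, 269, 303 and 285 in sham arrays. In both runs every preconditioned array lay above every sham array. The rise was 1.14 ± 0.09 in numbers 1 to 5 (mean log2 difference ± SE, 5 arrays a group), which is 2.20-fold with a limma adjusted p of 3.2e-12. It was 0.70 ± 0.09 in numbers 6 to 10, which is 1.62-fold with a limma adjusted p of 3.0e-06.

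In numbers 11 to 15, Plat had 229, 291, 280.2, 343 and 245 in preconditioned arrays, against 296, 288, 301, 277 and 273 in sham arrays. In numbers 16 to 20, it had 352, 303, 293, 346 and 277 in preconditioned arrays, against 314, 319.6, 272, 267 and 261 in sham arrays. The groups overlapped in both of these runs, with preconditioned arrays 14 and 16 the highest of theirs. The differences were -0.06 (95% interval -0.24 to 0.12, limma adjusted p = 0.873) and 0.13 (-0.05 to 0.31, limma adjusted p = 0.927).

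The change of the Plat effect across runs was itself tested. The limma F-test of the interaction gave an adjusted p of 2.76e-08, and this test called 0.762% of all probe sets. Between neighbouring runs, the Plat effect in numbers 6 to 10 was smaller than in 1 to 5 by a log2 difference of -0.44 ± 0.13, which did not pass (limma adjusted p = 0.371, with 0.0537% of probe sets called). The effect in numbers 11 to 15 fell by 0.76 ± 0.13 on the log2 scale relative to that in 6 to 10 (limma adjusted p = 8.7e-04, with 0.279% called). That in numbers 16 to 20 differed from 11 to 15 by 0.19 ± 0.13 (limma adjusted p = 0.634, with 0.0161% called). The sham level of Plat did not pass the test across runs (limma adjusted p = 0.219).

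**Figure D1:**
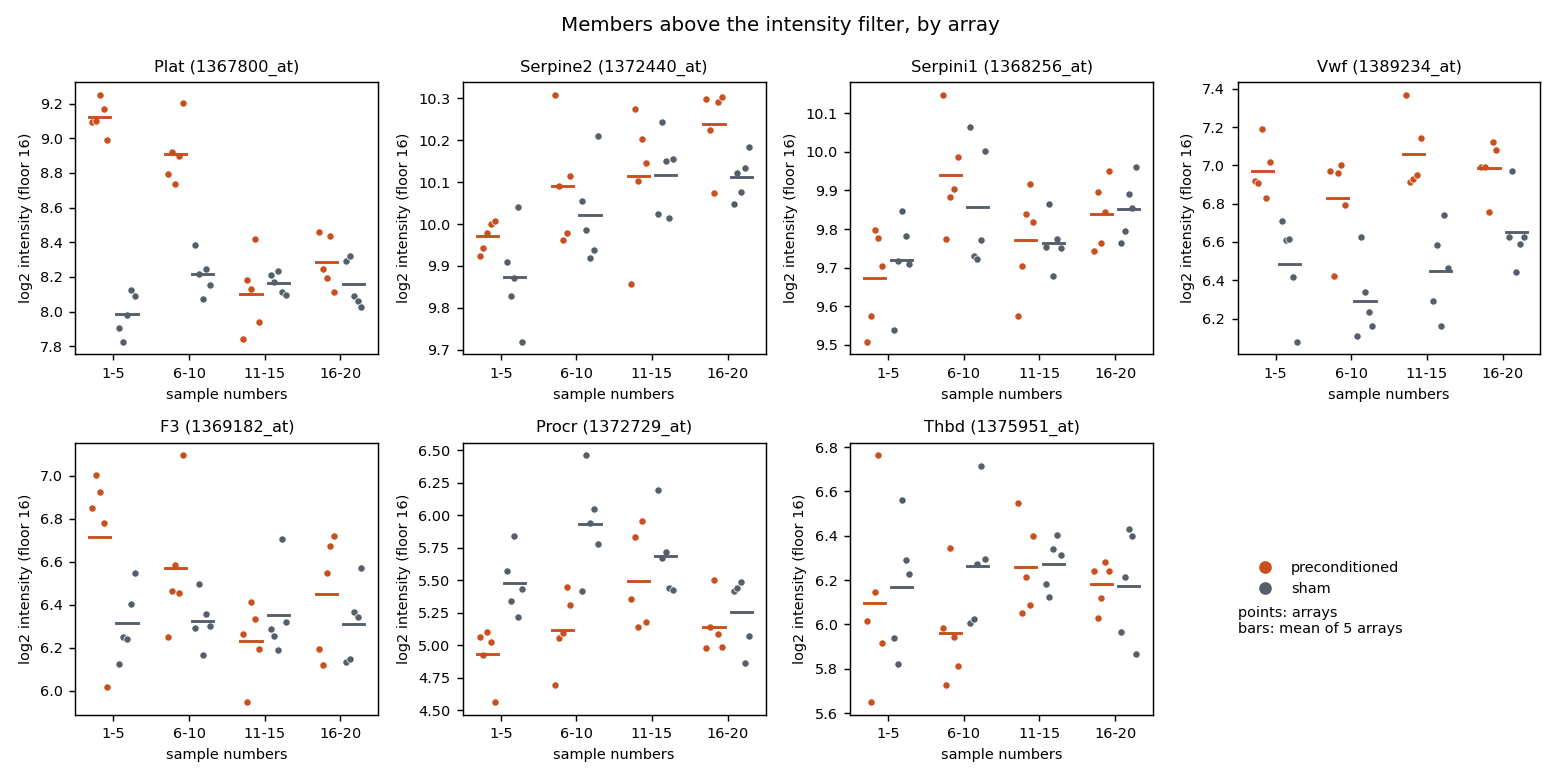
Log2 intensity (y axis, floor of 16) of the 7 genes above the filter on each array, by run of sample numbers (x axis), with preconditioned arrays in orange left of sham arrays in grey and bars at the mean of 5 arrays. Plat separates fully in numbers 1 to 5 and 6 to 10 and overlaps afterwards, while Vwf is higher on average in each run.

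Plau encodes urokinase, the other main activator, and was at or near the floor of 16 set on all intensities. Its probe set 1387675_at lay below the floor on 22 of 40 arrays, and its probe set 1398287_at on 35. In numbers 1 to 5, 1387675_at had 25.0, 24.5, 25.2, 15.6 and 24.0 in preconditioned arrays, against 16.8, 7.43, 5.21, 2.83 and 18.4 in sham arrays. Here 4 of the 5 preconditioned arrays were above all sham arrays, and the remaining one lay below the floor. In numbers 6 to 10 it had 23.2, 20.0, 14.8, 24.3 and 22.1 in preconditioned arrays, against 21.7, 8.82, 7.87, 14.2 and 5.95 in sham arrays, with 3 preconditioned arrays above all sham arrays.

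In a fit with no filter, which is where Plau can be tested, 1387675_at was higher by 0.45 ± 0.11 (log2, SE, limma adjusted p = 0.0273) in numbers 1 to 5. With a floor of 1 the same difference was 1.48 (limma adjusted p = 0.171), and without preconditioned arrays 5 and 6 it was 0.42 (limma adjusted p = 0.0695), so the call does not hold in these fits. The difference in numbers 6 to 10 was 0.30 ± 0.11 (limma adjusted p = 0.185). The other Plau probe set gave 0.03 and 0.02 in these runs, neither of which passed.

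Plaur encodes the receptor that holds urokinase at the cell surface. Its probe set 1371286_at was below the floor on all 40 arrays, and 1387269_s_at on 29 of 40, with intensities from 0.833 to 23.1 in preconditioned arrays and from 2.35 to 21.7 in sham arrays. No difference of Plaur passed the test in the fit with no filter, and at these intensities a difference was not detectable.

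**Figure D2:**
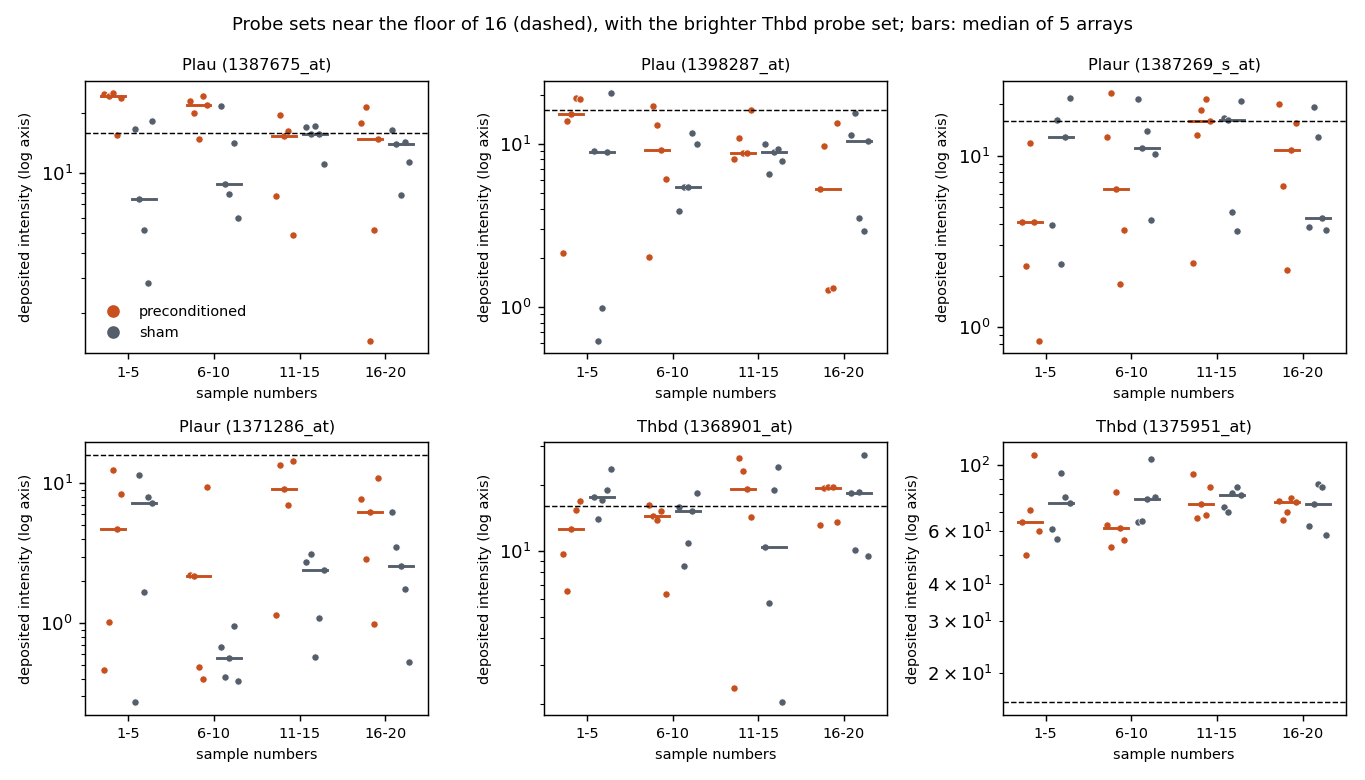
Deposited intensity (y axis, log scale) of the probe sets of Plau, Plaur and Thbd by run of sample numbers, with preconditioned arrays in orange left of sham arrays in grey, bars at the median of 5 arrays and the floor of 16 dashed. Points below the dashed line were set to the floor before testing, and of the 6 probe sets plotted Thbd 1375951_at, which passed the filter, lies above it on all arrays. Thbd 1368900_at is not plotted.

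The 2 inhibitors of the serpin family that are abundant in brain, Serpine2 and Serpini1, showed no preconditioning difference that passed the test in any run. Serpine2 encodes protease nexin-1, which inhibits thrombin and both activators. Its probe set (1372440_at) had 972, 984, 1009, 1024 and 1029 in preconditioned arrays 1 to 5, against 962, 909, 937, 1054 and 843 in sham arrays 1 to 5. The groups overlapped there, and the difference was 0.10 (95% interval -0.04 to 0.24, limma adjusted p = 0.514). In the runs 6 to 10, 11 to 15 and 16 to 20 the Serpine2 differences were 0.07, 0.00 and 0.12 on the log2 scale. In numbers 16 to 20 it had 1259, 1196, 1078, 1253 and 1262 in preconditioned arrays, against 1059, 1114, 1079.9, 1124 and 1163 in sham arrays. There 4 of the 5 preconditioned arrays were above all sham arrays, and the difference did not pass (limma adjusted p = 0.927).

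Serpini1 encodes neuroserpin, which is made by neurons and inhibits tissue plasminogen activator. Its brighter probe set (1368256_at) gave differences of -0.05, 0.08, 0.01 and -0.01 on the log2 scale in the 4 runs in order, and the 95% interval in numbers 1 to 5 ran from -0.20 to 0.10. Its other probe set (1387131_at) had 621, 645, 609.5, 499.9 and 484 in preconditioned arrays 1 to 5, against 643, 668, 641, 701 and 644 in sham arrays 1 to 5. There 4 of the 5 preconditioned arrays were below all sham arrays. The difference of -0.21 had a 95% interval of -0.37 to -0.06, which leaves out 0, but did not pass (limma adjusted p = 0.141). The 2 probe sets thus gave unlike values in numbers 1 to 5. Within groups, Serpine2 and Serpini1 varied together more than any other pair of the 7 genes (Pearson r = 0.55 over 40 arrays after removing the 8 group means), a description of arrays that share their RNA and scaling.

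**Figure D3:**
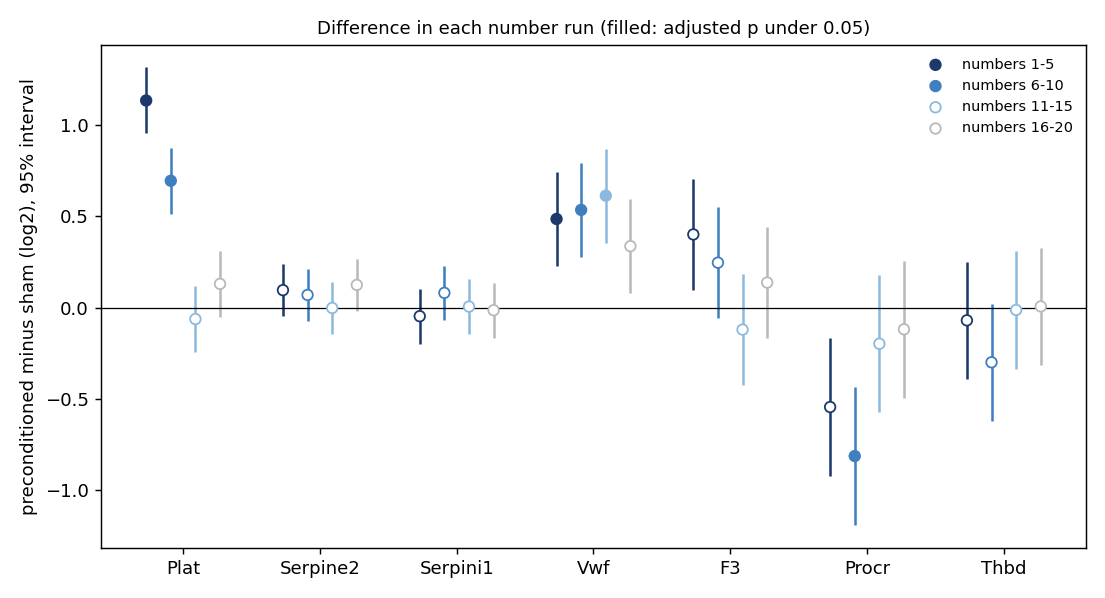
Preconditioned minus sham difference (y axis, log2) of each gene above the filter in the 4 runs of sample numbers, with 95% intervals of the limma fit and filled points where the adjusted p is under 0.05. The intervals of Serpine2 and Serpini1 are narrow and cross 0 in every run, while those of Vwf lie above 0 in every run.

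At the vessel wall, Vwf, which encodes von Willebrand factor of endothelium and platelets, was called higher in preconditioned cortex in 3 of the 4 runs. In numbers 16 to 20 it was also higher on average, without passing the test. In numbers 1 to 5, its probe set (1389234_at) had 121, 120.3, 146, 114 and 129.7 in preconditioned arrays, against 105, 97.7, 97.9, 85.6 and 67.6 in sham arrays. Numbers 6 to 10 had 125, 85.6, 125, 128 and 111 in preconditioned arrays, against 68.9, 98.8, 81.0, 75.4 and 71.4 in sham arrays. All 5 preconditioned arrays were above all sham arrays in the first of these runs, and 4 of 5 in the second, where preconditioned array 7 was low.

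In numbers 11 to 15, Vwf had 165, 121, 122, 124 and 142 in preconditioned arrays, against 78.4, 95.9, 71.5, 107 and 88.3 in sham arrays. In numbers 16 to 20, it had 127, 127, 108, 139.6 and 135 in preconditioned arrays, against 98.6, 125, 87.2, 96.3 and 98.8 in sham arrays. The groups did not overlap in numbers 11 to 15, and in numbers 16 to 20 only sham array 17 reached the range of the preconditioned arrays.

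Vwf rose by 0.49 ± 0.13 (log2, SE, limma adjusted p = 0.0280) in numbers 1 to 5, by 0.54 ± 0.13 (0.0153) in 6 to 10 and by 0.61 ± 0.13 (0.0300) in 11 to 15. In numbers 16 to 20 the difference was 0.34 ± 0.13 and did not pass (limma adjusted p = 0.925). The effect was not shown to differ between runs (interaction, limma adjusted p = 0.770). Averaged over the 4 runs, Vwf rose by 0.49 ± 0.06 (limma adjusted p = 2.35e-06), or 1.41-fold, and this call held in every alternative and with any array left out. The calls within single runs held less well, and none held when a run was fitted alone with its 10 arrays (limma adjusted p of 0.0809, 0.102 and 0.144 for the 3 called runs in order). Without preconditioned arrays 5 and 6 the adjusted p was 0.0589 in numbers 1 to 5 and 0.0510 in 6 to 10. The call in numbers 1 to 5 also ended without preconditioned array 3 or 5 or sham array 4 or 5 (limma adjusted p up to 0.112), and that in 6 to 10 without preconditioned array 6 (0.0533). The call in numbers 11 to 15 ended without preconditioned array 11, 12 or 15 or sham array 11, 13 or 15 (up to 0.158), and also under median centring (0.0606) and with no filter (0.0609).

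F3, which encodes tissue factor, had 115, 128, 122, 110.1 and 64.7 in preconditioned arrays 1 to 5 (1369182_at), against 69.8, 76.1, 75.5, 84.8 and 93.5 in sham arrays 1 to 5. Preconditioned arrays 1 to 4 were above all sham arrays, and preconditioned array 5, which also stood apart by its median, was below them all. The difference was 0.40 ± 0.15 and did not pass (log2, SE, limma adjusted p = 0.152). Without preconditioned array 5 it was 0.58 and passed (limma adjusted p = 0.0207). In numbers 6 to 10, 11 to 15 and 16 to 20 the F3 differences were 0.25, -0.12 and 0.14, none of which passed. Averaged over the runs F3 differed by 0.17 ± 0.08 (limma adjusted p = 0.212), and by 0.23 without preconditioned arrays 5 and 6 (limma adjusted p = 0.0394).

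The 2 receptors of the protein C pathway gave values on the other side of 0 in the first 2 runs. Procr, the endothelial protein C receptor, had 33.4, 30.3, 34.3, 32.4 and 23.6 in preconditioned arrays 1 to 5 (1372729_at), against 47.4, 40.4, 57.2, 37.1 and 43.1 in sham arrays 1 to 5. Its values in numbers 6 to 10 were 25.8, 33.2, 34.1, 43.6 and 39.5 in preconditioned arrays, against 42.8, 88.0, 61.4, 66.3 and 55.0 in sham arrays. The groups did not overlap in numbers 1 to 5, and in 6 to 10 only preconditioned array 9 reached the sham range. These intensities are close to the filter's limit of 31.9.

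Procr fell by 0.81 ± 0.19 on the log2 scale (SE, limma adjusted p = 0.0113) in numbers 6 to 10, to 0.569 of the sham level. In numbers 1 to 5 the difference was -0.54 ± 0.19 and did not pass (limma adjusted p = 0.112), and in 11 to 15 and 16 to 20 it was -0.20 and -0.12. The interaction did not pass (limma adjusted p = 0.370). Averaged over the runs, Procr fell by 0.42 ± 0.09 (limma adjusted p = 0.00619), a call that held with any array left out. With a pseudocount of 32 in place of the floor, the difference was -0.48 in numbers 6 to 10 and -0.24 on average. The call in numbers 6 to 10 ended without preconditioned array 6 (limma adjusted p = 0.0571) or sham array 7 (0.0645), and when that run was fitted alone (0.0915).

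Thbd encodes thrombomodulin, the receptor on which thrombin activates protein C. Its probe set above the filter (1375951_at) had intensities from 50.2 to 109 in preconditioned arrays and from 56.5 to 105 in sham arrays, and none of its differences passed. The farthest from 0 was -0.30 in numbers 6 to 10 (95% interval -0.62 to 0.02, limma adjusted p = 0.337), where 4 of 5 preconditioned arrays were below all sham arrays. Its other 2 probe sets lay mostly near or below the floor, with none of their differences past the threshold in the fit with no filter.

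Counted over the 7 genes above the filter, 2 were called in numbers 1 to 5 (Plat and Vwf, both higher), where limma called 1.23% of all probe sets higher and 1.15% lower. The count in numbers 6 to 10 was 3, Plat and Vwf higher and Procr lower, against 1.10% of all probe sets higher and 1.12% lower. In numbers 11 to 15 Vwf was called, a call that ended in several alternatives, against 0.0698% of all probe sets in either direction. In numbers 16 to 20 limma called 0 of the 7 and 0% of all probe sets, with 5.11% of all at an unadjusted p under 0.05, Vwf among them (p = 0.0114). For the average of the 4 runs, Plat and Vwf were called higher and Procr lower, against 2.07% of all probe sets higher and 1.93% lower. The members were chosen with earlier results of these data known, so their counts are not read as an excess over these shares. The median difference over all 10304 genes was -0.03 in numbers 1 to 5 and -0.03 in 6 to 10 on the log2 scale. The 4 runs have no arrays in common, so the difference within a run rests on its own 10 arrays. The calls also use an estimate of spread shared by all runs, so the counts are not independent of each other. With each run fitted alone, the Vwf calls ended, as did the Procr call in numbers 6 to 10. The average takes the arrays of all 4 runs.

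Sham arrays were also compared across the runs, since the labels do not say what the numbers stand for. The limma F-test over the 4 sham means called Serpine2 (adjusted p = 0.0326) and Procr (0.0460), 2 of the 7 genes, and 13.7% of all probe sets. With 1 of the 40 arrays left out at a time, the Serpine2 call held in 32 of 40 fits (limma adjusted p up to 0.115) and the Procr call in 22 of 40 (up to 0.128). The Serpine2 call also ended under median centring (0.0810), with no filter (0.0505) and without the mean trend (0.0513), and the Procr call with no filter (0.0746). Sham Serpine2 was lowest in numbers 1 to 5. Numbers 16 to 20 were higher than 1 to 5 by 0.24 ± 0.07 (log2, SE, limma adjusted p = 0.0169), the 1 member call in a comparison that called 14.8% of all probe sets. This call ended without sham array 5 (limma adjusted p = 0.0558). The same F-test across sham runs called 5 of 9 astrocyte, 4 of 10 neuron and 4 of 6 oligodendrocyte markers above the filter, and their part in the Serpine2 values was not tested. The F-test takes 4 sham means at once, so its share of 13.7% is not set beside that for preconditioning in a single run. Sham comparisons of 5 arrays with 5 called from 0.290% to 14.8% of all probe sets. Preconditioning called from 0% in numbers 16 to 20 to 1.23% higher and 1.15% lower in 1 to 5. Serpine2 and Procr are read against these shares.

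Sham Procr had mean log2 levels of 5.48, 5.93, 5.69 and 5.26 in the 4 runs in order, highest in numbers 6 to 10 (SD of 0.38 there), where sham array 7 reached an intensity of 88.0. Without that array the F-test of Procr gave a limma adjusted p of 0.128. Neighbouring runs of sham arrays did not differ past the threshold for any of the 7 genes. Those comparisons called 1.26% of all probe sets between 6 to 10 and 1 to 5, 0.290% between 11 to 15 and 6 to 10, and 0.650% between 16 to 20 and 11 to 15. Plat, Serpini1, Vwf, F3 and Thbd did not pass the test across sham runs.

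**Figure D4:**
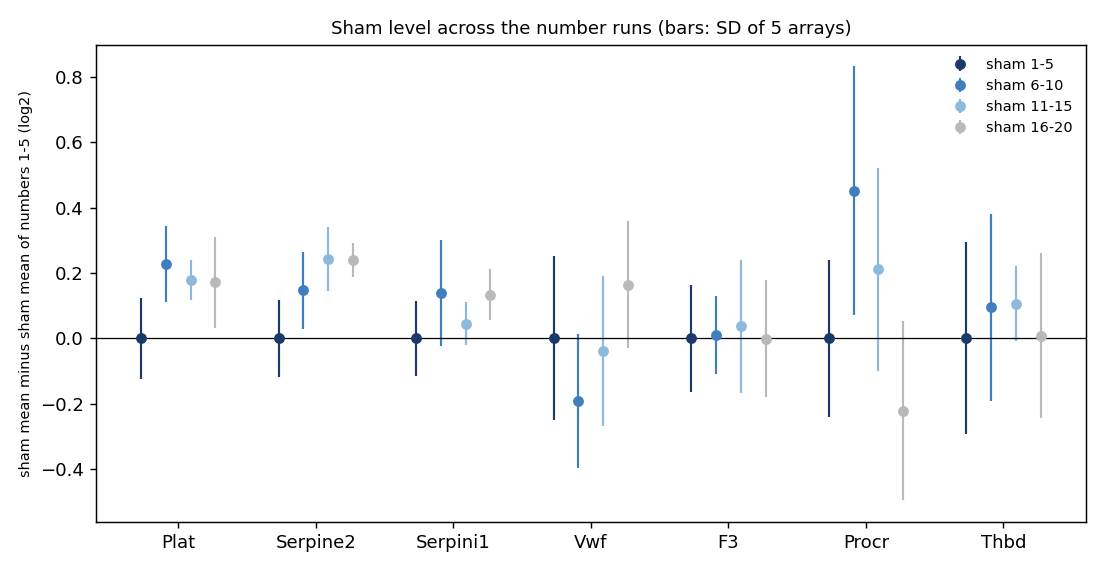
Mean log2 intensity of each gene in the sham arrays of each run, relative to its sham mean in numbers 1 to 5 (y axis), with bars of 1 SD of 5 arrays. Sham Serpine2 rises to 0.24 above numbers 1 to 5 with small SD, and sham Procr has the widest bars in numbers 6 to 10, 11 to 15 and 16 to 20.

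Other genes of the same system were counted from 3 lists. Of all probe sets, limma called 1.23% higher and 1.15% lower in numbers 1 to 5, and 1.10% higher and 1.12% lower in 6 to 10. The average over the runs called 2.07% higher and 1.93% lower. The interaction called 0.762% and the F-test across sham runs 13.7%. In the plasmin system, 16 of 17 genes had a probe set of their own on the array and 8 were above the filter, while Plg, which encodes plasminogen, was below it. Anxa2, which encodes annexin A2, a surface protein that holds tissue plasminogen activator and plasminogen, was higher in 1 to 5 and in 6 to 10. Its intensities ran from 298 to 376 in preconditioned arrays 1 to 5, against 249 to 276 in sham arrays 1 to 5, without overlap. Anxa2 rose by 0.32 ± 0.08 (log2, SE, limma adjusted p = 0.0123) in that run and by 0.60 ± 0.08 (limma adjusted p = 2.9e-06) in 6 to 10, and its interaction passed (0.00769). A2m, which encodes the protease inhibitor alpha-2-macroglobulin, rose on average over the runs by 0.25 ± 0.08 (limma adjusted p = 0.0482). Lrp1, a receptor that clears activator and inhibitor complexes, was called across the sham runs, 1 of 8 genes against 13.7% of all probe sets. The other 5 genes of this list passed none of these tests, and its median difference was -0.05 in numbers 1 to 5 and -0.03 in 6 to 10.

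Among 11 other serpins, 9 had a probe set of their own and 5 were above the filter. Serpinb9, an inhibitor of granzyme B, had 50.0 to 93.5 in preconditioned arrays 1 to 5, against 101 to 138 in sham arrays 1 to 5. It fell by 0.70 ± 0.14 on the log2 scale in that run (SE, limma adjusted p = 0.00339), and its effect differed between runs (interaction, limma adjusted p = 0.00918). Serpinh1, a chaperone of collagen with no inhibitory action, fell by 0.15 ± 0.04 on average (limma adjusted p = 0.0400).

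Of 29 clotting and vessel wall genes, 25 had a probe set of their own and 7 were above the filter, while the genes of prothrombin (F2), protein C (Proc) and P-selectin (Selp) were below it. F2r, which encodes the thrombin receptor PAR1, had 629 to 768 in preconditioned arrays 6 to 10, against 404 to 593 in sham arrays 6 to 10. It rose by 0.46 ± 0.10 (log2, SE, limma adjusted p = 0.00605) in that run and by 0.24 ± 0.05 on average (limma adjusted p = 0.00260). Gas6, a ligand of TAM receptors, rose by 0.15 ± 0.03 on average (limma adjusted p = 0.00557). Across the sham runs, Gas6 and Entpd1, which degrades ADP on endothelium, were called, 2 of 7 genes against 13.7% of all probe sets.

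**Figure D5:**
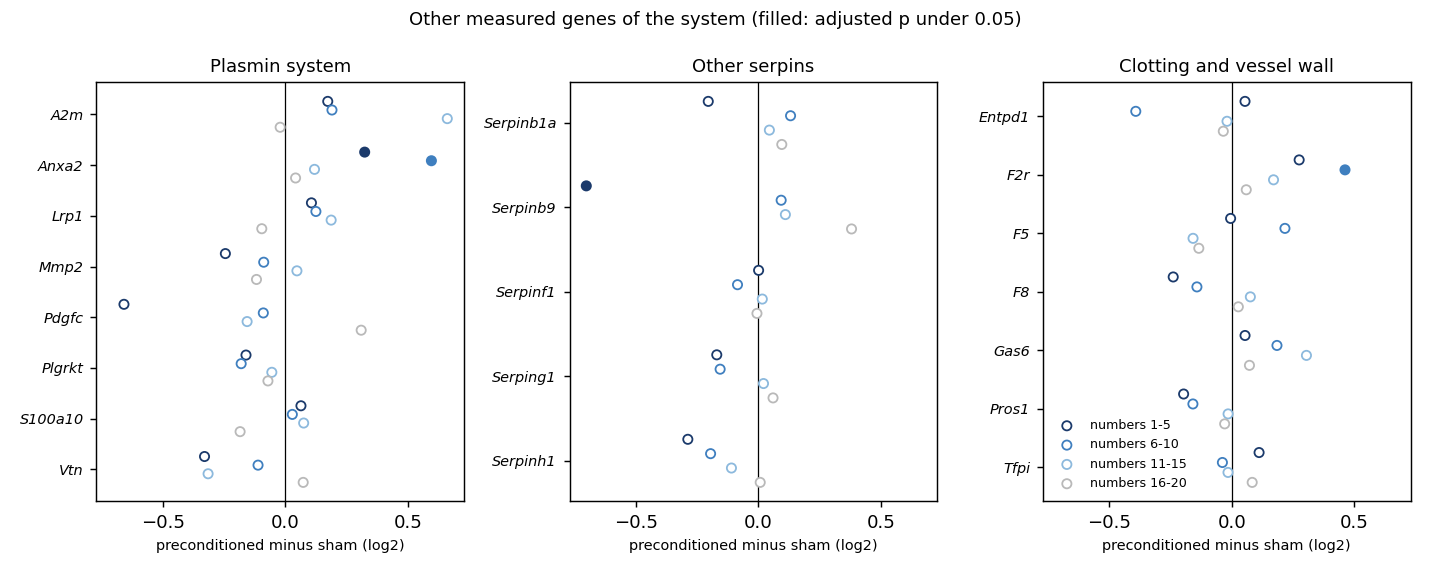
Preconditioned minus sham difference (x axis, log2) of the other genes above the filter in the 3 lists, with 1 point for each run of sample numbers and filled points where the limma adjusted p is under 0.05. The filled points are Anxa2 in numbers 1 to 5 and 6 to 10, Serpinb9 in 1 to 5 and F2r in 6 to 10.

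Vwf, Procr and Thbd are known as endothelial genes, so the other endothelial markers are given beside them. Of 12 above the filter, Pecam1, Kdr and Flt1 rose in numbers 1 to 5, where 1.23% of all probe sets were called higher and 1.15% lower. In numbers 6 to 10, Kdr rose and Tek and Abcb1a fell, against 1.10% of all higher and 1.12% lower. None passed in 11 to 15 or 16 to 20. The median log2 difference of the 12 was 0.07, 0.04, 0.07 and -0.06 in the 4 runs in order. The summed intensity of the 13 annotated endothelial genes was 1623 to 1964 in preconditioned arrays 1 to 5, against 1523 to 1793 in sham arrays 1 to 5. It was 1706 to 1971 in preconditioned arrays 11 to 15, against 1632 to 1771 in sham arrays 11 to 15, the run in which Vwf had its largest difference. In numbers 6 to 10 the endothelial sum was 1651 to 1951 in preconditioned arrays, against 1648 to 1818 in sham arrays. In numbers 16 to 20 it was 1585 to 1798 in preconditioned arrays, against 1598 to 1729 in sham arrays. No endothelial marker was at the floor on all arrays, and the part of endothelial content in the values of Vwf and Procr was not tested.

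Platelets also hold Vwf. Of 8 platelet markers 1 was above the filter, and Gp9 and Gp5 were at the floor on all arrays. The summed platelet level in numbers 1 to 5 was 128 to 192 in preconditioned arrays (median 181), against 132 to 152 in sham arrays (median 142). In numbers 6 to 10, where Vwf was also called, this sum leaned the other way. It was 120.3 to 167 in preconditioned arrays (median 149), against 152 to 186 in sham arrays (median 157). Its medians were 161 in preconditioned and 155 in sham arrays 11 to 15, and 168 and 178 in 16 to 20. Over all runs it was 120.3 to 193 in preconditioned arrays, against 129 to 186 in sham arrays. The sum takes 6 genes, most of them below the filter. The platelet marker above the filter differed by 0.28, 0.19, 0.22 and -0.18 on the log2 scale in the runs in order. This marker was thus higher in numbers 6 to 10, unlike the sum, and did not pass in any run. Red cell markers, a sign of blood left in the tissue, summed to 5548 to 8668 in preconditioned arrays 1 to 5, against 4782 to 5800 in sham arrays 1 to 5. It was 5141.5 to 8121 in preconditioned arrays 6 to 10, against 3544 to 4994 in sham arrays 6 to 10, without overlap in a run in which Vwf was called. In numbers 11 to 15 the red cell sum was 4276 to 7210 in preconditioned arrays, against 3943 to 5950.5 in sham arrays. In numbers 16 to 20 it was 4327 to 5593 in preconditioned arrays (median 4573), against 3306 to 5567 in sham arrays (median 5403). None of the 3 red cell genes above the filter passed the test, and the part of platelets and red cells in the Vwf values was not tested. None of 8 mural and 10 neuron markers above the filter passed for preconditioning in any run. Of 9 astrocyte markers, Gfap and Aldoc were called higher in 6 to 10 and Gfap in 11 to 15, with list medians of -0.11 and -0.09. Mrc1, 1 of 8 microglia and macrophage markers, was called higher in 6 to 10. Pdgfra, 1 of 6 oligodendrocyte markers, was called higher in 1 to 5 and 6 to 10. Shares of all probe sets called higher were 1.23% and 1.10% in those runs. The part of these cells in the member values was not tested. Choroid plexus markers, a sign of how the tissue was cut, summed to 3548 to 6229 in preconditioned arrays 6 to 10, against 169 to 5278 in sham arrays 6 to 10, with sham array 9 the low one. The calls of Plat, Vwf and Procr in that run held without sham array 9.

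The genes most like Plat in level over the 40 arrays were Slc2a1 (Pearson r = 0.92), a glucose transporter, Vegfa (0.90), a growth factor of vessels, and Fos (0.87), an immediate early gene. After the 8 group means were removed these were 0.13, 0.26 and 0.32, so the likeness is mostly between groups. For Vwf the closest were Appl2 (0.69), Mxi1 (0.66) and Bnip3l (0.65), with 0.18, 0.18 and 0.29 within groups. For Procr they were Yars2 (0.79), Rdh14 (0.74) and Lypla1 (0.73), with 0.64, 0.51 and 0.58 within groups. These are descriptions over arrays that share groups and scaling, chosen as the highest of 10304 genes.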

How the data were processed

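The authors deposited 1 table of linear intensity, with a value for every probe set on every array. The software behind them is not given in the sources used here, and no detection calls were used. The mean of each array without its lowest and highest 2% lay between 150.04 and 150.06, so the authors had scaled them. Of 31099 probe sets, 57 controls were left out. Intensities under 16 were set to 16 and log2 was taken, and a filter kept probe sets whose mean log2 value was at or above the 40th percentile, 31.9 as an intensity. At the floor lay 25.7% of all values and 0.149% of those kept. Gene names came from the platform annotation. A gene was represented by its brightest kept probe set.

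All 40 arrays were fitted as 8 group means with limma 3.58.1 in R 4.3.3 (lmFit, eBayes with a mean trend), with two-sided tests. P-values were adjusted by Benjamini and Hochberg over all 18625 kept probe sets at a threshold of 0.05, also where one gene is described. A difference is preconditioned minus sham, or later minus earlier sham numbers. The fit was tested on simulated data first. Every one of the 9 genes was described whatever its result, as were the called genes of 3 pathway lists. For each member called in at least 1 run, the 3 genes with the highest Pearson r were added. The members and lists were chosen with earlier results of these data known. The number of arrays limits the precision. The alternatives tried were median centring, quantile normalization, a pseudocount of 32, a floor of 1, no filter, a filter at the 60th percentile, no mean trend, any kept probe set, the run as covariate, a replicate block, single-run fits, sham arrays alone, and arrays left out.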

Additional observations from a re-analysis of the deposited data

Results flagged for a closer look

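The preconditioning effect on Plat differed between the 4 runs of sample numbers by the test of that difference (limma adjusted p = 2.76e-08). Single arrays lay far from the other 4 of their group for 3 of 64 groups of 5 arrays examined, where chance gives about 1 in 20. For F3, preconditioned array 5 had a log2 level of 6.02, against 6.78 to 7.00 on the other 4. Also for F3, sham array 14 had 6.70, against 6.19 to 6.32 on the other 4. For the dimmer Serpini1 probe set (1387131_at), sham array 7 had 9.21, against 9.47 to 9.56 on the other 4.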

How the results depend on the processing

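Of the 7 genes above the filter, 2 were called in numbers 1 to 5 and 3 in 6 to 10. Each count was 1 (Plat) when each run was fitted alone, with its 10 arrays. The 1 call in numbers 11 to 15 (Vwf) became 0 under median centring (limma adjusted p = 0.0606), with no filter (0.0609), in the single-run fit (0.144) and with the sample number as a replicate block (0.0591). The 2 calls across sham runs became 1 under median centring, with the filter at the 60th percentile and without the mean trend, and 0 with no filter. With arrays left out one at a time, the counts were 1 to 2 in numbers 1 to 5, 1 to 3 in 6 to 10, 0 to 1 in 11 to 15, 0 to 2 across sham runs, and 0 to 1 between sham numbers 16 to 20 and 1 to 5. The counts for the interaction (1) and numbers 16 to 20 (0) were the same in each fit that gave them. For the average of the runs the count was 3, except 2 with the filter at the 60th percentile, which drops Procr, and 4 with no filter (Plau added) or without preconditioned arrays 5 and 6 (F3 added). The Plat calls in numbers 1 to 5 and 6 to 10 held in every alternative and with any array left out. No called difference changed sign, and signs of differences that did not pass were not followed. The cause of the changes was not tested.

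Same-numbered arrays of the 2 groups deviated together in 15 of 20 pairs at a correlation over 0.1 (0.031 to 0.393), and 19 of 20 correlated best with their own number within the run. The labels do not say that the numbers pair samples, and the replicate block changed no call but that of Vwf. No such block could be fitted for the comparisons among sham arrays. The low Plau intensity, mostly below the floor, sets its limit, and its alternatives were chosen after seeing the data: a pseudocount of 32 gave a limma adjusted p of 0.0733 in numbers 1 to 5. The Plau call for the average with no filter (0.0248) was lost in all 3 alternatives run for it (limma adjusted p 0.0549 to 0.539).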
